A study of Mus musculus with 6 samples.

Results

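The 10 genes of the endoplasmic reticulum (ER) stress response described here were Hspa5, Hsp90b1, Calr, Pdia4, Hyou1, Sdf2l1, Dnajb9, Herpud1, Edem1 and Xbp1, measured in forebrain RNA of mice with floxed Tsc1. They were picked by name, and all 10 were found among the 22651 genes of each deposited table. The RNA came from telencephalon at postnatal day 0 of 3 WT mice (TSC1 flox/flox;Emx1 +/+) and 3 TSC1-KO mice (TSC1 flox/flox;Emx1-cre/+), with 1 library per mouse. Both groups thus carried the floxed Tsc1 alleles and differed in the Cre recombinase, which is driven from the Emx1 locus and acts in the embryonic dorsal cortex. Cells of the ventral telencephalon, vessels and blood keep Tsc1 in this model, and their RNA was in the same libraries. The question was whether loss of Tsc1, which releases mTOR signaling and with it protein synthesis, went with a change in the ATF6 or XBP1 arms of the unfolded protein response.

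As background, proteins that enter the ER are folded by chaperones such as BiP (Hspa5) and by enzymes that form disulfide bonds, and those that fail are sent out to the proteasome, a route called ER-associated degradation. When unfolded protein accumulates, sensors in the ER membrane start the unfolded protein response. ATF6 is cut to release a transcription factor, IRE1 splices the mRNA of Xbp1 so that it encodes an active factor, and PERK slows translation while letting ATF4 be made. ATF4 can also be driven by mTORC1 or by amino acid shortage without any stress in the ER.

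The promoters of these genes were searched for the motifs of those factors, and are given for the genes on which the results below turn. ATF6 and XBP1 are known to act through the ER stress response element, written CCAAT, then 9 bases of any kind, then CCACG, and through a shorter form, ATTGG, 1 base, CCACG. Both forms, the XBP1 motif TGACGTGG and the ATF4-type motifs TGATGNAAC and TGATGNAAT were searched on both strands of the 250 bases before the start of each gene in RefSeq (GRCm38.p6, the assembly of mm10). Of the 10 genes, 9 were matched to a promoter, all but Hyou1. The long element was found in Hspa5, Hsp90b1 and Calr and in 0.113% of all 32851 promoters, and the short element in Herpud1 and in 0.0304% of all promoters. TGATGNAAC was found in Herpud1 and in 0.712% of all promoters, whereas TGATGNAAT, present in 0.816%, and TGACGTGG, present in 0.563%, were in none of the 9. A match describes these letters only and is not a measured binding site. In the sequences below, read 5′ to 3′ along the strand of the gene, capitals mark the matches. Hspa5 (chr2:34771840-34772089, plus strand) holds 1 long element from -65 to -47 counted from the start. Hsp90b1 (chr10:86705515-86705674, minus strand, bases -230 to -71) holds 2, the second of them reversed. Calr (chr8:84847042-84847121, minus strand, bases -190 to -111) holds 1 reversed long element. Herpud1 (chr8:94386179-94386428, plus strand) holds the reversed ATF4-type motif from -113 to -105 and the short element from -52 to -42.
Hspa5: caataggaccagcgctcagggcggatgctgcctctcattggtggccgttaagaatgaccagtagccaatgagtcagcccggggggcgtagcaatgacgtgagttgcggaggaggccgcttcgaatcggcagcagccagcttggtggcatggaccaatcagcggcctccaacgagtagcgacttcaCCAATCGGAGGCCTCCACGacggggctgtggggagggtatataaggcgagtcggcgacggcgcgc
Hsp90b1: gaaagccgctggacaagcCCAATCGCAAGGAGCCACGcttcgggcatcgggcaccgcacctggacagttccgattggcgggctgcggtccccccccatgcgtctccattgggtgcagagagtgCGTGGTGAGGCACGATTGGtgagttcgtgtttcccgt
Calr: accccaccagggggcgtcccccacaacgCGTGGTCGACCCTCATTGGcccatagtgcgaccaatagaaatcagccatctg
Herpud1: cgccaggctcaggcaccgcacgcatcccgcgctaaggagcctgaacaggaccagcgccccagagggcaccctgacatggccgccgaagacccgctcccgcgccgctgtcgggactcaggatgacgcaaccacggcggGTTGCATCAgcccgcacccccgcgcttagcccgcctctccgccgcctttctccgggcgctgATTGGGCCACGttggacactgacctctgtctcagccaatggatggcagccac

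The libraries held between 14119365 and 17772865 expected counts, the reads that RSEM assigned to genes, so that 3 counts corresponded to at most 0.2125 CPM. The median of gene length minus RSEM's effective length was 48.7, 45.8 and 49.7 bases in WT replicates 1 to 3. In TSC1-KO it was 55.1, 57.6 and 56.2 bases, so the groups did not overlap in it. A fit with effective lengths as offsets is given among the alternatives below. All 10 genes passed the filter on low counts, with 35 counts in the least counted library of Sdf2l1 and 6824 in the most counted library of Calr. Tsc1 itself was at 50.2, 32.0 and 28.4 TPM in WT and at 27.1, 21.7 and 22.4 TPM in TSC1-KO, with no overlap, although the gene value also counts reads from the exons that Cre leaves in place. TSC1-KO replicate 3 stood apart from the other TSC1-KO libraries. It lay at -3.95 on the first principal component, which held 47.7% of the variance, against 26.5 and 30.3 for the other TSC1-KO mice and -7.43 to -26.3 for WT. On the second component, which held 19.2%, WT replicate 1 stood apart, at 26.1 against 2.52 and -8.86 for the other WT mice. The TSC1-KO libraries lay at -18.0 to 1.64 on it. Where leaving out TSC1-KO replicate 3 changed a call or a count below, the value without that library is given too.

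None of the 10 genes passed the test across the whole table (edgeR quasi-likelihood test, Benjamini-Hochberg adjusted p below 0.05, 0 of 10 genes), at which 212 of 13969 genes, or 1.52%, were called. With WT replicate 1 left out 2 passed (Calr, Edem1), in a fit that called 447 of 14067 genes. With TSC1-KO replicate 3 left out 2 passed (Herpud1, Edem1), in a fit that called 799 of 14079 genes. By edgeR's unadjusted p below 0.05, 5 of the 10 were called, 2 higher and 3 lower in TSC1-KO, where 18.0% of all genes were. DESeq2 on the same counts called 4 of the 10, namely Herpud1, Edem1, Hsp90b1 and Calr, against 4.86% of all genes. In TPM, 3 of the 10 genes (Herpud1, Edem1, Sdf2l1) lay above WT in every TSC1-KO library, as 12.3% of all genes did, and 3 (Hspa5, Hsp90b1, Calr) lay below WT in every one, as 10.3% did. The genes thus did not lie to one side. Their log2 fold changes had a median of -0.01, beside -0.003 over all genes, with 5 above and 5 below 0.

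**Figure D1:**
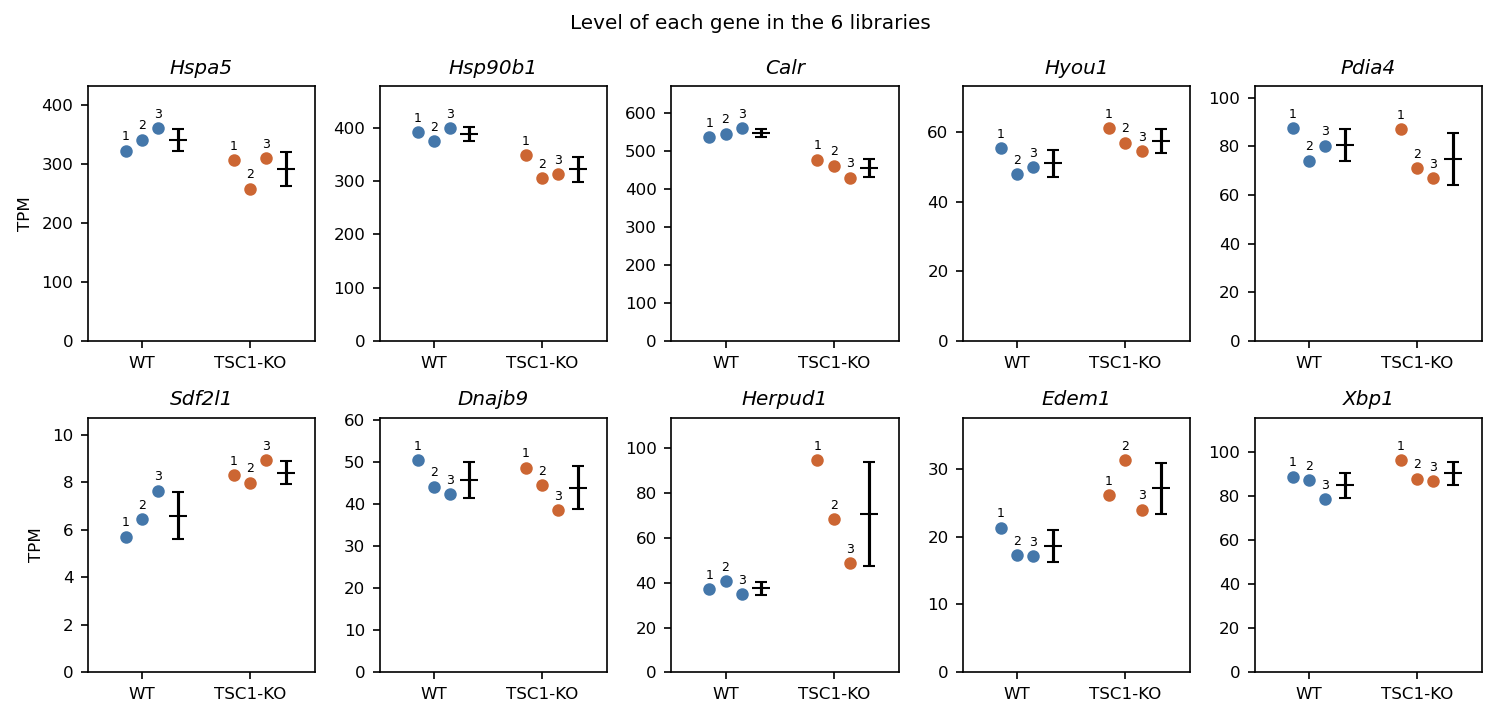
Levels of the 10 genes in TPM (linear axes from 0) in each library of WT (blue) and TSC1-KO (orange), numbered by replicate, with the mean and SD of each group (n = 3) to the right of its points. Hspa5, Hsp90b1 and Calr lie lower in all TSC1-KO libraries, Herpud1, Edem1 and Sdf2l1 lie higher, and the groups of the other 4 genes overlap.

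Hspa5, Hsp90b1 and Calr, the most abundant of the 10 genes, were at lower TPM in all TSC1-KO libraries than in any WT library, but none passed edgeR's adjusted test. Hspa5, which encodes BiP, the chaperone that holds the stress sensors inactive, was at 322, 341 and 360 TPM in WT replicates 1 to 3 and at 306, 258 and 309 TPM in TSC1-KO. The groups did not overlap, although WT replicate 1 lay close to TSC1-KO replicate 3. Its log2 fold change was -0.26 (standard error 0.0895, 95% interval -0.46 to -0.06, edgeR adjusted p = 0.178). Hsp90b1, the ER form of HSP90 also known as GRP94, was at 392, 375 and 399 TPM in WT and at 349, 306 and 313 TPM in TSC1-KO. Its log2 fold change was -0.30 (standard error 0.0674, edgeR adjusted p = 0.0651). Calr, the calcium-binding lectin calreticulin that folds glycoproteins, was at 538, 546 and 560 TPM in WT and at 477, 461 and 430 TPM in TSC1-KO, again with every TSC1-KO library below every WT library. Its log2 fold change was -0.30 (standard error 0.0647, edgeR adjusted p = 0.0604), and without WT replicate 1 the adjusted p was 0.0395. These are the 3 genes whose promoters hold the long element shown above. The intervals of Hsp90b1 and Calr correspond to levels in TSC1-KO of 0.731 to 0.902 and of 0.736 to 0.901 times those in WT.

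Markers of the choroid plexus, a secretory epithelium attached to the telencephalon, moved in the same direction as these chaperones. The 7 markers summed to 1713, 1179 and 2484 TPM in WT replicates 1 to 3 and to 33.03, 111 and 871 TPM in TSC1-KO, most of it the transthyretin gene Ttr, and all 7 lay below WT in every TSC1-KO library. By edgeR's adjusted p, 0 of the 7 passed, whereas all 7 had an unadjusted p below 0.05 and DESeq2 called 4. Without TSC1-KO replicate 3, 6 of the 7 passed edgeR's adjusted test (Ttr, Aqp1, Clic6, Folr1, Kcne2, Otx2). That fit called 799 of 14079 genes. The libraries nearest in this sum, WT replicate 2 and TSC1-KO replicate 3, which are 1 mouse each, stood at 546 and 430 TPM for Calr, at 375 and 313 TPM for Hsp90b1 and at 341 and 309 TPM for Hspa5. The part of choroid plexus tissue in the chaperone levels was not tested, and in tissue RNA fewer cells of a type and less RNA per cell cannot be told apart. Markers of red blood cells were lower in most TSC1-KO libraries, at 1292 to 1783 TPM against 1695 to 5567 in WT. Sums of the 6 endothelial markers overlapped, at 146 to 177 against 173 to 231. Of these markers, 5 were lower, and Flt1 had a log2 fold change of 0.02. DESeq2 called 3 of them (Cldn5, Cdh5, Tek), beside 4.86% of all genes, and edgeR's adjusted test called 0. Sums of meningeal fibroblast markers were at 303, 205 and 371 TPM in TSC1-KO replicates 1 to 3 against 270 to 434 in WT, with 6 of 7 markers lower. Without TSC1-KO replicate 3, the highest of these sums in TSC1-KO, 4 of the 7 passed edgeR's adjusted test (Col1a1, Col1a2, Col3a1, Lum) and so did 1 of the 6 endothelial markers, Tek, where 0 had passed with it. Their part in the chaperone levels was not tested either. Sums of microglial markers overlapped, at 148 to 218 against 150 to 202, but the 7 markers did not lie to one side. C1qa, C1qb and C1qc had log2 fold changes of 0.15, 0.15 and 0.04. Those of Csf1r, Cx3cr1, P2ry12 and Aif1 were -0.35, -0.53, -0.63 and -0.56. An unadjusted edgeR p below 0.05 was seen in 3 of the 7, all lower, beside 18.0% of all genes. By edgeR's adjusted test and by DESeq2, 0 were called. Of the 11 telencephalon markers in the tables, all were present in every library. The dorsal marker Neurod6 reached 793 to 1103 TPM. The subpallial genes Dlx1 and Gad1, and also Bcl11b, passed edgeR's adjusted test as lower in TSC1-KO (adjusted p = 0.0183, 0.0479 and 0.0479). Bcl11b is not limited to the ventral telencephalon, as the paper reports its protein as lower in cortex by immunohistochemistry. With single libraries left out, these calls were lost in 3 of 6 fits for Dlx1, 5 of 6 for Gad1 and 4 of 6 for Bcl11b, and none of the 3 passed without TSC1-KO replicate 1, TSC1-KO replicate 2 or WT replicate 3. Without TSC1-KO replicate 3, 7 of the 11 markers passed.

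**Figure D2:**
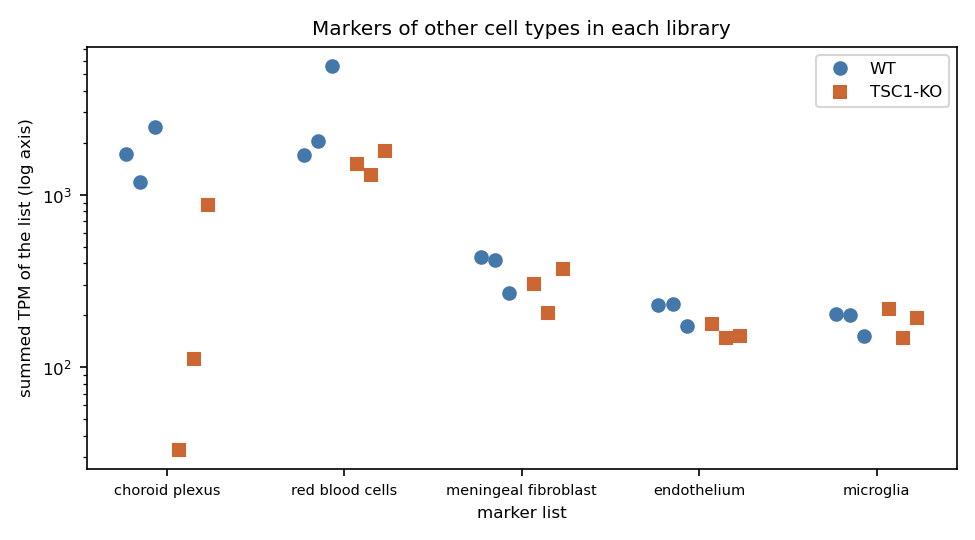
Summed TPM (log axis) of markers of 5 other cell types in each WT (blue circles) and TSC1-KO (orange squares) library. The choroid plexus sums of TSC1-KO, 33.03 to 871, all lie below those of WT, 1179 to 2484.

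The other chaperones and their partners gave no common direction. Hyou1, an ER chaperone of the HSP70 family that exchanges the nucleotide of BiP, was at 55.4, 47.9 and 50.02 TPM in WT and at 61.1, 57.0 and 54.5 TPM in TSC1-KO. Only the highest WT library reached into the TSC1-KO range, and the log2 fold change was 0.14 (95% interval -0.02 to 0.31, edgeR adjusted p = 0.34). Pdia4, a disulfide isomerase, was at 87.3, 74.0 and 80.1 TPM in WT and at 87.0, 71.0 and 66.8 TPM in TSC1-KO. The groups overlapped, and its interval ran from -0.36 to 0.09. Dnajb9, a cochaperone that directs BiP to misfolded protein, was at 50.5, 44.2 and 42.3 TPM in WT and at 48.7, 44.5 and 38.6 TPM in TSC1-KO. Here too the ranges overlapped, with an interval of -0.32 to 0.15. Sdf2l1, a small partner of the BiP complex, was at 5.70, 6.43 and 7.64 TPM in WT and at 8.29, 7.98 and 8.93 TPM in TSC1-KO. All TSC1-KO values lay above WT, but they rest on 35 to 55 counts per library, and the interval of -0.14 to 0.78 included 0 (edgeR adjusted p = 0.448).

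The genes of ER-associated degradation showed the largest differences among the 10. Herpud1, an ER membrane protein that gathers the degradation machinery and whose promoter holds both the short element and the ATF4-type motif, was at 37.1, 40.8 and 34.9 TPM in WT and at 94.8, 68.5 and 48.7 TPM in TSC1-KO. All TSC1-KO libraries lay above WT, but they spread over a wide range, and replicate 3 was the lowest of them. The level in TSC1-KO was 1.83 times that in WT (95% interval 1.35 to 2.49), or 0.87 on the log2 scale (standard error 0.196), with an adjusted p of 0.0657 in edgeR. Without TSC1-KO replicate 3 the log2 fold change was 1.075 and the edgeR adjusted p was 0.00268, and without TSC1-KO replicate 1 they were 0.62 and 0.195. Edem1, a lectin that draws misfolded glycoproteins out of the folding cycle, was at 21.3, 17.3 and 17.1 TPM in WT and at 26.1, 31.3 and 24.0 TPM in TSC1-KO. Every TSC1-KO library was above every WT library. Its level was 1.43 times that of WT (95% interval 1.19 to 1.72), or 0.52 on the log2 scale (standard error 0.1175), with an adjusted p of 0.0657 in edgeR. The edgeR adjusted p was 0.0244 without TSC1-KO replicate 3 and 0.0423 without WT replicate 1.

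**Figure D3:**
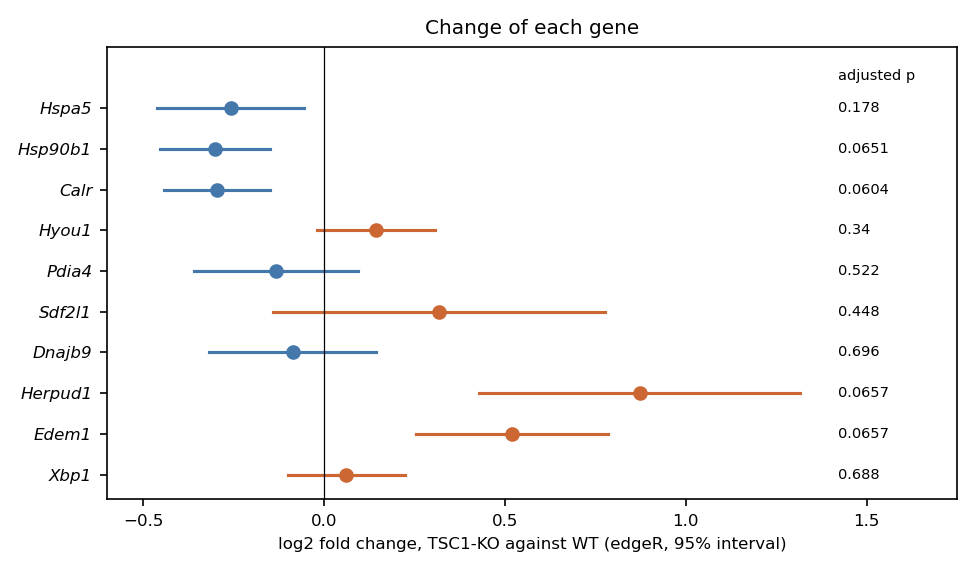
Log2 fold changes of TSC1-KO against WT from edgeR for the 10 genes, with lines for the 95% interval and the adjusted p at the right (3 mice per group). The intervals of Hspa5, Hsp90b1 and Calr lie below 0, those of Herpud1 and Edem1 lie above 0, and no adjusted p is below 0.05.

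Xbp1, the transcription factor of the IRE1 arm, was at 88.6, 86.9 and 78.4 TPM in WT and at 96.2, 87.8 and 86.7 TPM in TSC1-KO. The groups overlapped, and the log2 fold change of 0.06 had an interval of -0.10 to 0.22. The total level does not tell spliced from unspliced Xbp1. The tables list 2 transcripts of Xbp1, and RSEM's gene length is a mean of transcript lengths weighted by their abundance, so that a shift between transcripts of unequal length would move it. That length was 2247 bases in all 6 libraries, a difference of 0, so it carried no information on splicing. Hspa5, the other of the 10 with 2 transcripts, had lengths of 2570 to 2587 bases in WT and 2575 to 2583 bases in TSC1-KO (exact permutation test, p = 1.0, where the smallest p that 3 against 3 allow is 0.1).

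Grouped by arm, with the caution that several of these genes answer to both factors, the 7 genes usually placed with ATF6 (Hspa5, Hsp90b1, Calr, Pdia4, Hyou1, Sdf2l1, Herpud1) had a median log2 fold change of -0.13. The 3 usually placed with XBP1 (Xbp1, Dnajb9, Edem1) had a median of 0.06. In neither arm did a gene pass edgeR's adjusted test with all libraries. Without TSC1-KO replicate 3, 1 gene passed in each arm (Herpud1 and Edem1), as it did without WT replicate 1 (Calr and Edem1). Within each arm, genes whose intervals lie on opposite sides of 0 or include it stood side by side: Herpud1 against Calr in the first, and Edem1 against Dnajb9 in the second.

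Per transcript length, Calr was the most abundant of the 10 in both groups, followed by Hsp90b1 and Hspa5. These levels did not overlap in WT, while Hsp90b1 and Hspa5 did in TSC1-KO, at 306 to 349 and 258 to 309 TPM. Xbp1 and Pdia4 came next and overlapped in both groups. In WT they were followed by Hyou1 and Dnajb9, which also overlapped, and then Herpud1, Edem1 and Sdf2l1, each apart from its neighbours. In TSC1-KO, Herpud1 moved from place 8 to place 6 and overlapped with both Pdia4 and Hyou1.

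The remainder of the pathway, from lists of genes chosen by role, was tested in the same fit. Over all genes, edgeR's adjusted test called 1.52%, 18.0% had an unadjusted p below 0.05 in edgeR, and DESeq2 called 4.86%. Among 15 sensors and transducers, 0 passed edgeR's adjusted test, 1 had an unadjusted p below 0.05, DESeq2 called 0, and the median log2 fold change was 0.07. The genes of the sensors themselves had intervals that included 0. Ern1, which encodes IRE1, was at 5.93 to 7.72 TPM in WT and 5.57 to 8.25 TPM in TSC1-KO, Eif2ak3, which encodes PERK, was at 19.1 to 25.3 and 20.7 to 28.1 TPM, and Atf6 was at 15.3 to 18.8 and 16.4 to 18.8 TPM. The gene that had the low unadjusted p was Mbtps2, the protease that makes the last cut in ATF6, at 50.1 to 56.5 TPM in WT and 61.0 to 68.5 TPM in TSC1-KO (edgeR adjusted p = 0.101). The genes with the highest levels in this list, Yy1 and Nfyb, encode factors that bind the stress element together with ATF6. Both overlapped between the groups.

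Among 33 other folding genes, 25 were lower and 8 higher in TSC1-KO, with a median of -0.05. None passed edgeR's adjusted test. An unadjusted edgeR p below 0.05 was seen in 5 of the 33, all lower, beside 18.0% of all genes. DESeq2 called 1 of the 33, Pdia3, beside 4.86% of all genes. Pdia3, the isomerase that works with calreticulin, was at 346, 354 and 358 TPM in WT and at 311, 301 and 303 TPM in TSC1-KO (log2 fold change -0.24, edgeR adjusted p = 0.0854). P4hb, the founding member of the isomerase family, stood at 286 to 297 TPM in WT and 247 to 261 TPM in TSC1-KO (edgeR adjusted p = 0.0988). Without WT replicate 1 both passed edgeR's adjusted test (2 of the list). They were named for their values, and both lay in the same direction as Hspa5, Hsp90b1 and Calr. The membrane-bound partner of calreticulin, Canx, was at 290 to 316 TPM in WT and 293 to 331 TPM in TSC1-KO, a log2 fold change of 0.00 with an interval of -0.14 to 0.15. The 2 genes of this list with the highest levels were Sep15, at 428 to 484 TPM over both groups, and the prolyl isomerase Ppib, at 350 to 386 TPM in WT and 310 to 343 TPM in TSC1-KO (edgeR adjusted p = 0.238).

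Degradation genes other than Herpud1 and Edem1 numbered 23, of which 13 were higher and 10 lower with a median of 0.03, and 0 passed in edgeR's adjusted test or in DESeq2. Rnf139 was the 1 gene with an unadjusted p below 0.05, on the lower side, and Edem3 was the 1 gene that passed edgeR's adjusted test without WT replicate 1. The relatives of the 2 genes, Herpud2 (32.2 to 42.3 TPM in WT, 34.5 to 50.5 TPM in TSC1-KO) and Edem3 (39.0 to 55.4 and 48.1 to 57.1 TPM), had intervals that included 0, as did Edem2, Sel1l and the list's most abundant gene, Vcp. The 35 genes of the translocon, signal peptidase, glycosylation and ER export had a median of -0.04, again with 0 passing edgeR's adjusted test or DESeq2. At an unadjusted p below 0.05 there were 3 higher and 3 lower. The largest value in that list, 1.28 for Srp54a, belongs to a gene with near-identical neighbouring copies among which reads can be divided, and is uncertain. It was the 1 gene of the list that passed edgeR's adjusted test without TSC1-KO replicate 1. Its most abundant genes, Ssr3 and Sar1a, overlapped between the groups.

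**Figure D4:**
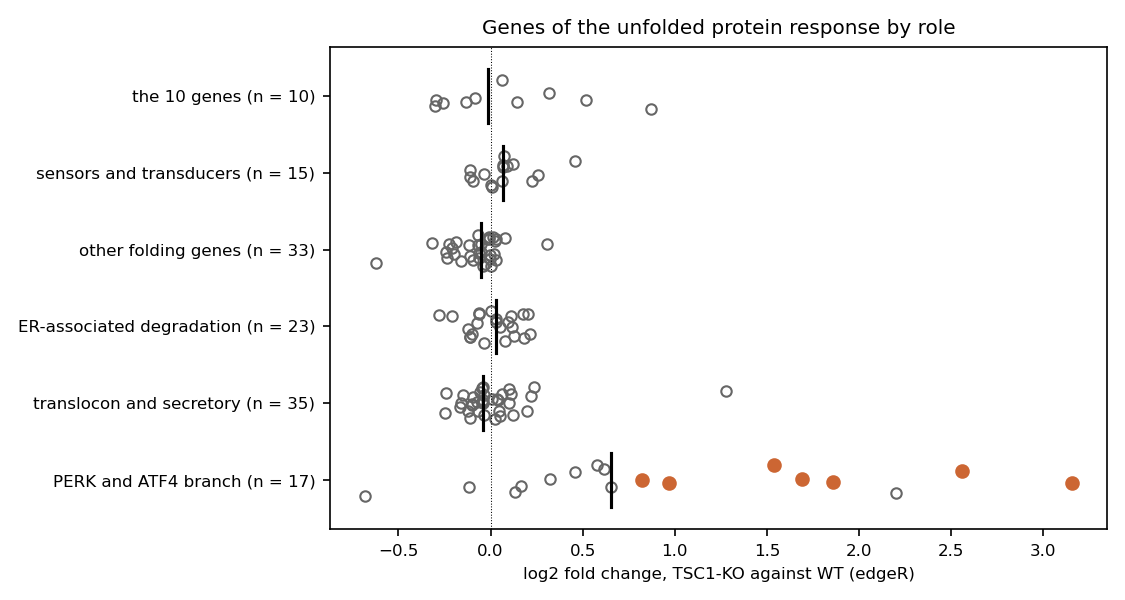
Log2 fold changes from edgeR for the genes of each role, with filled orange points for an adjusted p below 0.05 and a black bar at the median of each list. Filled points are found in the PERK and ATF4 branch, 7 of 17 genes, and nowhere else in these lists.

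The PERK and ATF4 branch stood beside these lists with other values. Of its 20 genes, 17 were in the tables and tested. In edgeR's adjusted test 7 passed, beside 1.52% of all genes, and all 7 rose. An unadjusted edgeR p below 0.05 was seen in 12, all higher, beside 18.0% of all genes. DESeq2 called 9, all higher, beside 4.86% of all genes. The median log2 fold change was 0.66, against -0.01 for the 10 ER genes, and the difference between the lists was not tested. Without WT replicate 2 or WT replicate 3, 4 genes passed (Aldh1l2, Asns, Ddit4, Sesn2), where 29 and 35 of all genes did. Without TSC1-KO replicate 3, 9 of the branch passed, where 799 of all genes did. The list was drawn up with earlier results of the same mice known, so its direction is not independent evidence. Chac1, which breaks down glutathione, was at 4.45 to 6.80 TPM in WT and at 87.1, 51.9 and 11.4 TPM in TSC1-KO, and rose by 3.15 on the log2 scale (edgeR adjusted p = 0.0471). That call was lost in 5 of the 6 fits with a single library left out and held without TSC1-KO replicate 3 (edgeR adjusted p = 0.000165), and without TSC1-KO replicate 1 the log2 fold change was 2.51 (edgeR adjusted p = 0.167). Sesn2, a leucine sensor, rose by 2.56 (adjusted p = 0.00112), Stc2, a secreted glycoprotein, by 1.86 (adjusted p = 0.0137) and Mthfd2, a folate enzyme of mitochondria, by 1.69 (adjusted p = 0.0203), all from edgeR. The calls of Stc2 and Mthfd2 were lost in 2 and 4 of those 6 fits, and that of Sesn2 in 0. Asns, asparagine synthetase, was at 92.0 to 111 TPM in WT and 273 to 325 TPM in TSC1-KO (edgeR adjusted p = 0.000846). Ddit4 and Aldh1l2 were the other two that passed. Ddit3 and Atf4 did not pass with all libraries. Ddit3, which encodes CHOP, was at 24.8, 28.7 and 29.1 TPM in WT and at 61.9, 35.7 and 33.1 TPM in TSC1-KO (edgeR adjusted p = 0.194). Atf4 itself was at 217, 219 and 210 TPM in WT and at 474, 311 and 204 TPM in TSC1-KO, so that TSC1-KO replicate 3 lay below all WT libraries (edgeR adjusted p = 0.227). Without that library Atf4 passed, with a log2 fold change of 0.82 (edgeR adjusted p = 0.0101), and without TSC1-KO replicate 1 the log2 fold change was 0.24 (edgeR adjusted p = 0.569).

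Herpud1 shared the order of the TSC1-KO libraries with part of this branch. Its level was highest in TSC1-KO replicate 1, next in replicate 2 and lowest in replicate 3, and so were those of Atf4, Ddit3, Trib3, Chac1, Atf3, Ppp1r15b, Ddit4, Mthfd2 and Stc2, 9 of the 17 genes. Over all genes tested, 25.1% had that order. It was also that of 6 of the 10 ER genes, Calr and Pdia4 among them, so it is not limited to genes that were higher in TSC1-KO. Edem1 had another order, with replicate 2 the highest at 31.3 TPM. TSC1-KO replicate 1 held the highest TSC1-KO value in 7 of the 10 genes and replicate 3 the lowest in 7 of the 10. Shares over all genes were not computed for these counts, so they are not read as particular to the 10 genes.

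**Figure D5:**
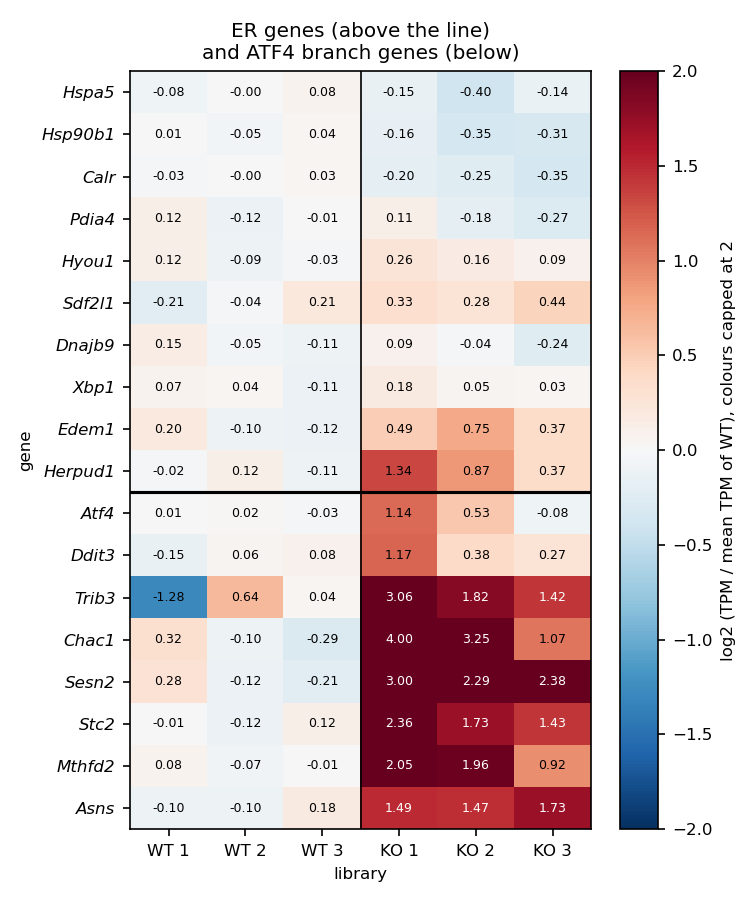
Log2 ratio of each library's TPM to the WT mean of that gene, for the 10 ER genes (above the line) and 8 genes of the ATF4 branch (below), of which Ddit3 and Trib3 were added after their values were seen. Herpud1 runs from 1.34 in TSC1-KO replicate 1 to 0.37 in replicate 3, while Hspa5, Hsp90b1 and Calr lie between -0.40 and -0.14 in the TSC1-KO libraries.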

How the data were processed

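As the paper describes it, RNA of 6 telencephalons (3 WT, 3 TSC1-KO) was sequenced as paired ends and trimmed. The authors aligned the reads to mm10 with MapSplice2 and quantified them per gene with RSEM 1.2.12. The medians of gene length minus effective length, 45.8 to 57.6 bases over the libraries, were not reconciled with that description. The transcript identifiers are those of RefSeq, in a release not given in the sources used here. The deposited tables give expected counts without normalization, TPM scaled by RSEM per effective length, FPKM (not used), and the length and effective length of each gene. Groups and replicate numbers were taken from the titles. Expected counts were rounded and fitted with edgeR 4.0.16 (TMM, filterByExpr, quasi-likelihood test, R 4.3.3) over 13969 genes, and p-values were adjusted over all of them by Benjamini-Hochberg. Standard errors are the log2 fold change divided by the root of the F statistic. Intervals come from those and are for the difference between the groups. The spread between mice enters the standard error, but the intervals are not a range of single mice. DESeq2 1.42.0 and limma 3.58.1 served as alternatives, as did the permutation method of the study. Its null came from all 20 assignments of the samples. Scripts were tested on simulated data, and no pair of libraries of a group was a duplicate (chi-square per degree of freedom of at least 5.68). The 10 genes, the role lists and the tests were chosen with earlier results of these data known. All 10 genes are described. From the other lists, genes that passed (the 4 largest where over 6 did) and the 2 with the highest mean TPM are named by rule, and others were named after their values were seen. Some genes that this rule names are not reported here. The 5 genes with the highest Pearson r to Hspa5 in log2 CPM are also named. Replicates are separate mice.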

Additional observations from a re-analysis of the deposited data

How the results depend on the processing

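The number of the 10 genes past the threshold, 0 in edgeR with TMM, was also 0 with RLE normalization and with effective lengths as offsets. It was 1 (Calr) with upper-quartile normalization and with limma on log2(TPM + 1) or log2(TPM + 0.1), 2 (Herpud1, Edem1) with no filter on low counts, and 4 (Hsp90b1, Calr, Herpud1, Edem1) with DESeq2. The method of the study gave 5 by its overall P, which is not adjusted for the number of genes, and 2 (Herpud1, Edem1) with a fold change cut. That cut, 0.496 on the log2 scale, was recomputed here from the 20 assignments of the samples and is not the value the study used. Leaving out replicates gave 0 to 2. Over the whole table, 212 genes became 640 with DESeq2, 346 with no filter, 2697 by the overall P of the study's method and 1008 with the recomputed cut, and 29 (without WT replicate 2) to 799 (without TSC1-KO replicate 3) with replicates left out. The groups share replicate numbers, and with the replicate block edgeR called 551 genes and 4 of the 10, the same genes as DESeq2. Deviations from the group means correlated with r = 0.267, -0.133 and 0.318 for numbers 1, 2 and 3, and WT replicate 2 did not correlate best with its own number, so pairing was not shown. Over 17 alternatives, the log2 fold change lay between 0.62 and 1.075 for Herpud1, 0.40 and 0.61 for Edem1, -0.33 and -0.23 for Calr, -0.34 and -0.25 for Hsp90b1 and -0.32 and -0.15 for Hspa5. The direction of Dnajb9 turned, to 0.012, in the study's method. Depth limits Sdf2l1 most, at 35 to 55 counts per library. Proteins and splice junctions were not analysed here, so folding capacity and Xbp1 splicing were not measured.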

Other observations

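The stress elements shown for Hspa5, Hsp90b1, Calr and Herpud1 mark few other genes. One or the other form was found in 47 of 32851 promoters, and 20 genes with such a promoter were tested by edgeR. Of these 20, which include the 4 just named, 0 had an edgeR adjusted p below 0.05 with all libraries. Calr passed without WT replicate 1 and Herpud1 without TSC1-KO replicate 3, as given above. An unadjusted edgeR p below 0.05 was seen in 6, beside 18.0% of all genes. These 6 were the 4 just named, Acacb and Xlr3a. DESeq2 called 3, all among the 4 just named (Calr, Herpud1, Hsp90b1), beside 4.86% of all genes. Of the 20, 7 were higher and 13 lower in TSC1-KO, and the median log2 fold change was -0.095, beside -0.003 over all genes. The folding genes among them were Canx at 0.00, Pdia6 at -0.12, Creld2 at -0.22 and Dnajc3 at 0.08. Herpud1, at 0.87, had the highest value of the 20. This grouping was made after the promoters had been searched.

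Over the 6 libraries, the log2 CPM of Hspa5 had a Pearson r of 0.867 with Hsp90b1, 0.768 with Calr and -0.964 with Edem1, which placed them at 746, 1770 and 13877 among 13968 genes. The genes with the highest r were Syf2, Gm5803, Tex9, Twistnb and Phip, at 0.993 to 0.997. These values describe 6 libraries in 2 groups, so that a difference between the groups enters r, and no test was made on them.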
